A study of Drosophila melanogaster with 8 samples.

Results

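The aminoacyl-tRNA synthetase genes were followed in Drosophila melanogaster enterocytes, the absorptive cells of the midgut, in which the transcription factor Shavenbaby (Svb, encoded by ovo) was manipulated. Members were taken from the gene count table by symbol: an amino acid abbreviation followed by RS, with or without the ending -m that marks the mitochondrial enzyme, GluProRS, and the subunits of the cytosolic phenylalanine enzyme. The pattern found 32 genes, and alpha-PheRS and beta-PheRS, written with a hyphen in the symbol table, made 34 of the 9177 genes in the count table. Of these, 19 are cytosolic and 15 are mitochondrial. The symbol table holds 35 such genes, and HisRS was not analysed here. All 34 passed the filter on low counts, which left 8775 genes to test.

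Bulk RNA of 3 genotypes was sequenced. SvbAct flies (n = 3 libraries) carried UAS-SvbACT::GFP, a constitutively active form of Svb. RNAiSvb flies (n = 3) carried UAS-SvbRNAi, a hairpin against Svb, and Ctrl flies (n = 2) came from a cross to Canton-S and had no further UAS transgene. In comparisons with Ctrl, the change in Svb, the cross and the presence of a further UAS transgene cannot be told apart. Flies of every group also carried MyoIA-Gal4, the enterocyte driver, UAS-GFP and the temperature-sensitive repressor tubGal80TS. They were virgin females kept for 3 days at room temperature and then for 6 days at 29 °C to release the driver, which makes them 9 days old at dissection. Pooled posterior midguts were dissociated, and the sheets of enterocytes held back by a 70 µm strainer were lysed. Replicates were made on different calendar days. The strain label places the transgene induction in intestinal stem cells, whereas the genotype names MyoIA-Gal4, and this difference between labels could not be settled from the counts.

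Library totals lay between 15450011 and 23748649 counts. The targeted gene ovo had 868, 1189 and 762 counts in SvbAct, 40, 26 and 61 counts in the libraries labelled RNAiSvb, and 9 and 2 counts in Ctrl. Its log2 fold change was 7.52 (standard error 0.64, adjusted p 0.000219 by edgeR) for SvbAct over Ctrl and 2.63 (standard error 0.63, adjusted p 0.0807 by edgeR) for RNAiSvb over Ctrl. The counts of the libraries labelled RNAiSvb were thus above and not below those of Ctrl, which goes against a knockdown label at the level of reads on this gene, and the transcribed hairpin and the endogenous mRNA cannot be told apart in these counts. Enterocyte markers summed to between 12629 and 17491 CPM (counts scaled to a common library size) in SvbAct, 16330 and 21218 CPM in the libraries labelled RNAiSvb, and 15157 and 16845 CPM in Ctrl. The abundant genes Vha16-1 and alphaTry weigh most in these sums, with means of 7359 and 2933 CPM in SvbAct. Of the 9 markers, 4 had a log2 fold change above 0 and 5 below 0 for SvbAct over Ctrl, so similar sums hide opposite directions. Progenitor markers summed to between 244 and 354 CPM in SvbAct, 118 and 124 CPM in the libraries labelled RNAiSvb, and 105 and 122 CPM in Ctrl. Of 9 progenitor markers listed, 8 entered these sums, esg not being among them, and E(spl)m7-HLH failed the filter. Called higher in SvbAct than in Ctrl were 6 of the 7 tested, beside 3.44% of all genes. The other, klu, weighs most in the Ctrl sums at 69.7 and 79.1 CPM, with a log2 fold change of 0.31 (standard error 0.20, adjusted p 0.480 by edgeR) for SvbAct over Ctrl. In bulk libraries, fewer cells of a type and less RNA per cell cannot be told apart.

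Aminoacyl-tRNA synthetases attach each amino acid to its matching tRNA, the step at which the genetic code is read into amino acids before the ribosome uses the charged tRNA. In animal cells the cytosol and the mitochondria have separate enzymes for most amino acids, all of them encoded in the nucleus, and the mitochondrial ones serve translation of the few respiratory chain subunits that mitochondrial DNA encodes. GluProRS is a fused enzyme that charges glutamate and proline tRNAs in the cytosol. Cytosolic PheRS is built from an alpha and a beta subunit, whereas mitochondrial PheRS is a single chain. GlnRS, GlyRS, LysRS and ThrRS had no -m partner among the members. In human cells the GlyRS and LysRS genes each give both a cytosolic and a mitochondrial enzyme, and mitochondrial glutaminyl-tRNA is made by an amidotransferase from a glutamate-charged tRNA. Enterocytes make and secrete digestive enzymes, which are products of cytosolic translation.

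Cytosolic synthetase genes were expressed at higher levels than mitochondrial ones. Per exon length, the median of the 19 cytosolic genes was 34.6 RPKM (CPM divided by exon length in kilobases), and that of the 15 mitochondrial genes was 5.08 RPKM, each gene being averaged over all 8 libraries. In that measure 10 cytosolic genes lay above the highest mitochondrial gene, and 13 mitochondrial genes lay below the lowest cytosolic one. With coding length in place of exon length the medians were 37.9 and 7.63 RPKM. The values are a description of these libraries, and no test was made between genes.

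AspRS, which charges aspartate tRNA, was the most abundant member. Its level was 167 ± 13.6 RPKM in SvbAct (SD, n = 3), 168 ± 27.6 RPKM in the libraries labelled RNAiSvb (SD, n = 3), and 146 ± 11.3 RPKM in Ctrl (SD, n = 2). AspRS had 345, 406 and 387 CPM in SvbAct, 355, 453 and 336 CPM in the libraries labelled RNAiSvb, and 350.1 and 314 CPM in Ctrl. The groups overlapped, with log2 fold changes of 0.19 (standard error 0.18, adjusted p 0.642 by edgeR) for SvbAct over Ctrl, and 0.20 for RNAiSvb over Ctrl. The level of AspRS is uncertain, because 1665 of its 2266 exon bases are shared with exons of Nmda1 and of the antisense genes asRNA:CR43468 and asRNA:CR45141, and whether counting used strand is not given in the sources used here. SerRS had 95.7, 115 and 99 CPM in SvbAct, 114, 129 and 114 CPM in the libraries labelled RNAiSvb, and 117 and 100.0 CPM in Ctrl. TyrRS had 77.7, 93.2 and 83.2 CPM in SvbAct, 92.3, 148 and 100.5 CPM in the libraries labelled RNAiSvb, and 108 and 99.1 CPM in Ctrl. SerRS and TyrRS charge serine and tyrosine tRNAs and averaged 57.8 and 56.6 RPKM over the 8 libraries. TyrRS was lower in each SvbAct library than in either Ctrl library, with a log2 fold change of -0.29 (standard error 0.21, adjusted p 0.521 by edgeR), and SerRS overlapped between these groups at -0.08 (standard error 0.16, adjusted p 0.851 by edgeR). TyrRS (FBgn0027080, chromosome arm 3L, 16417349 to 16419302, minus strand) lies 171 bases from GluRS-m (FBgn0036629, chromosome arm 3L, 16415292 to 16417177, minus strand) in the dm6 assembly.

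Per exon length, the lowest cytosolic members were MetRS and alpha-PheRS; per coding length MetRS was again lowest at 17.9 RPKM, and ArgRS at 19 RPKM lay below alpha-PheRS at 19.9 RPKM. MetRS had 45.3, 63.3 and 60.6 CPM in SvbAct, 51.5, 68.7 and 53.8 CPM in the libraries labelled RNAiSvb, and 51.4 and 43.7 CPM in Ctrl. alpha-PheRS had 27.6, 34.5 and 27.9 CPM in SvbAct, 27.3, 38.4 and 32 CPM in the libraries labelled RNAiSvb, and 27.2 and 23.3 CPM in Ctrl. The MetRS enzyme supplies the methionine that starts and extends proteins, and its SvbAct and Ctrl values overlapped, with a log2 fold change of 0.25 (standard error 0.20, adjusted p 0.585 by edgeR). The alpha-PheRS values of SvbAct and of the libraries labelled RNAiSvb all lay above those of Ctrl, by 0.25 (standard error 0.21, adjusted p 0.588 by edgeR) and 0.37 (standard error 0.21, adjusted p 0.487 by edgeR) on the log2 scale. The smallest gap was narrow, 27.3 CPM in RNAiSvb replicate 1 against 27.2 CPM in Ctrl replicate 1. The partner subunit beta-PheRS averaged 30.4 RPKM over the 8 libraries, against 17.5 RPKM for alpha-PheRS.

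Among mitochondrial members AspRS-m and PheRS-m stood above the others, at 31.8 and 27.6 RPKM over the 8 libraries. AspRS-m had 129, 127 and 139.6 CPM in SvbAct, 153, 142 and 149.6 CPM in the libraries labelled RNAiSvb, and 150.1 and 135 CPM in Ctrl. PheRS-m had 33.8, 40.1 and 40.1 CPM in SvbAct, 41.7, 61.5 and 41.3 CPM in the libraries labelled RNAiSvb, and 37.4 and 41.6 CPM in Ctrl. Both overlapped between SvbAct and Ctrl, with log2 fold changes of -0.11 (standard error 0.15, adjusted p 0.745 by edgeR) for AspRS-m and -0.05 (standard error 0.21, adjusted p 0.928 by edgeR) for PheRS-m. At the other end, per exon length, were MetRS-m and GluRS-m, the enzymes for methionine and glutamate, at 2.31 and 3 RPKM. Per coding length GluRS-m was lowest at 3.32 RPKM, and MetRS-m stood at 5.7 RPKM, above 5 of the 15 mitochondrial genes. MetRS-m had 8.93, 10.5 and 10.0 CPM in SvbAct, 10.6, 10.6 and 12 CPM in the libraries labelled RNAiSvb, and 8.45 and 8.46 CPM in Ctrl. GluRS-m had 4.58, 2.51 and 3.99 CPM in SvbAct, 4.81, 8.72 and 5.41 CPM in the libraries labelled RNAiSvb, and 5.13 and 5.62 CPM in Ctrl. MetRS-m was lowest in both Ctrl libraries, although its log2 fold changes of 0.22 (standard error 0.23, adjusted p 0.681 by edgeR) for SvbAct and 0.39 (standard error 0.23, adjusted p 0.501 by edgeR) for RNAiSvb over Ctrl did not pass the test. GluRS-m was below both Ctrl values in all 3 SvbAct libraries, at -0.54 (standard error 0.39, adjusted p 0.524 by edgeR). The plot of levels shows each member in each library.

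**Figure D1:**
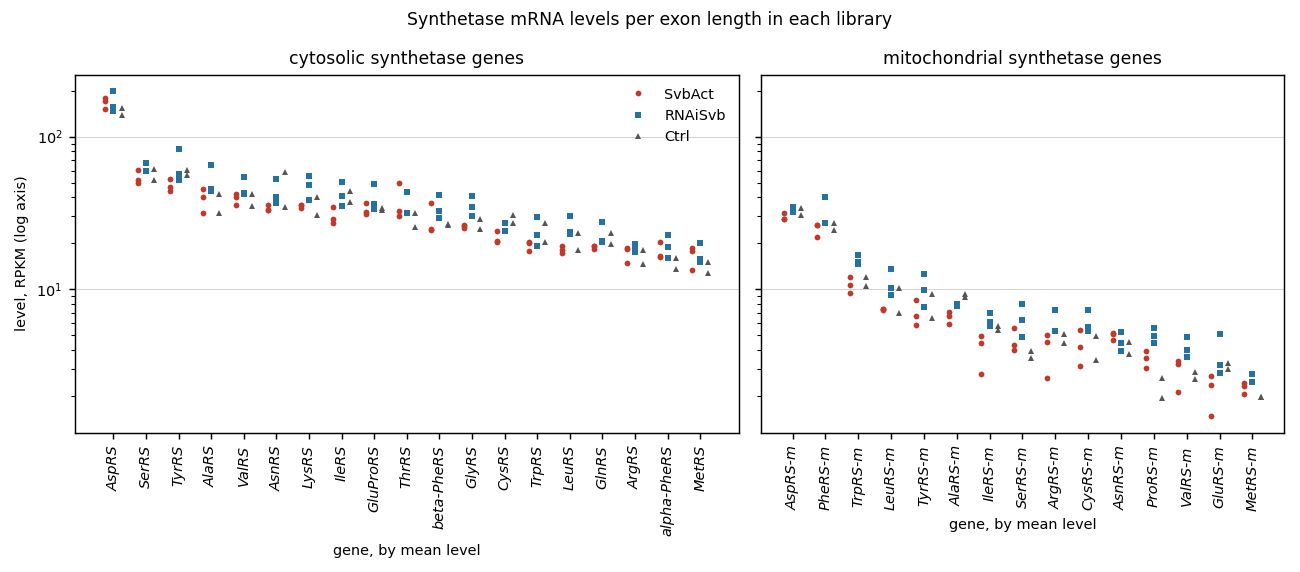
Level of each synthetase gene in RPKM per exon length (log axis), with cytosolic genes on the left and mitochondrial genes on the right, ordered by mean level; each point is 1 library of SvbAct, RNAiSvb or Ctrl. AspRS stands highest at a mean of 162 RPKM, and all mitochondrial genes other than AspRS-m and PheRS-m have means below the 16.1 RPKM of MetRS, the lowest cytosolic gene.

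The first comparison asked whether the active form of Svb shifts synthetase mRNA. No synthetase gene was called different between SvbAct and Ctrl: 0 of 34 passed an adjusted p of 0.05 in edgeR's quasi-likelihood test, beside 3.44% of all genes tested, and DESeq2 also called 0, beside 7.3% of all genes. At an unadjusted p under 0.05 there were 2, CysRS and AlaRS-m, both lower, where 7.81% of all genes were lower at that level, and that count ran between 0 and 3 under the alternatives, with 0 without Ctrl replicate 1, without SvbAct replicate 3, with library totals and with a replicate block, and 1 without SvbAct replicate 1. The median log2 fold change was -0.02 for the cytosolic genes and -0.07 for the mitochondrial genes, against -0.01 for all genes, and 8 of 19 and 6 of 15 lay above 0, where 48.9% of all genes did. Both medians changed sign with library totals as the scale, to 0.07 and 0.03, where the median of all genes was 0.08. They were 0.05 and 0.03 without Ctrl replicate 1, and -0.17 and -0.14 without Ctrl replicate 2. In CPM, 1 cytosolic gene was higher and 5 were lower in every SvbAct library than in either Ctrl library, and 4 mitochondrial genes were higher and 3 lower, where 18.7% of all genes were higher and 20% lower. The 95% intervals of 31 of the 34 log2 fold changes lay within 1 of 0 in either direction, and those of GluRS-m, IleRS-m and ProRS-m reached further.

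Among the cytosolic genes, CysRS, IleRS and AsnRS had the smallest p. CysRS had 58.9, 50.0 and 50.5 CPM in SvbAct, 58.8, 66.6 and 66.2 CPM in the libraries labelled RNAiSvb, and 75.7 and 66.6 CPM in Ctrl. All 3 SvbAct values of this cysteine enzyme were below both Ctrl values, with a log2 fold change of -0.42 (standard error 0.16, adjusted p 0.199 by edgeR). IleRS had 106, 135 and 112 CPM in SvbAct, 159, 197 and 137 CPM in the libraries labelled RNAiSvb, and 172 and 144 CPM in Ctrl. IleRS, the isoleucine enzyme, was also lower without overlap, at -0.42 (standard error 0.19, adjusted p 0.294 by edgeR). AsnRS had 78.3, 84.3 and 78.3 CPM in SvbAct, 87.4, 125 and 95.7 CPM in the libraries labelled RNAiSvb, and 140.3 and 82.3 CPM in Ctrl. AsnRS, which charges asparagine tRNA, overlapped because Ctrl replicate 2 lay among the SvbAct values while Ctrl replicate 1 was far above them, and its log2 fold change was -0.47 (standard error 0.23, adjusted p 0.329 by edgeR).

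Among the mitochondrial genes the smallest p were those of AlaRS-m, ProRS-m and IleRS-m. AlaRS-m had 19.2, 23.1 and 21.7 CPM in SvbAct, 25.2, 25.3 and 25.7 CPM in the libraries labelled RNAiSvb, and 28.7 and 30.2 CPM in Ctrl. AlaRS-m (FBgn0028962, chromosome arm 3L, 5146098 to 5149852, plus strand), the mitochondrial alanine enzyme, was lowest in SvbAct and highest in Ctrl with no overlap between any groups, with -0.46 (standard error 0.18, adjusted p 0.217 by edgeR) for SvbAct over Ctrl. ProRS-m had 6.01, 4.66 and 5.36 CPM in SvbAct, 7.45, 6.79 and 8.41 CPM in the libraries labelled RNAiSvb, and 2.94 and 3.99 CPM in Ctrl. ProRS-m (FBgn0027082, chromosome arm 3L, 2650161 to 2651850, minus strand), the mitochondrial proline enzyme, was above both Ctrl values in all 3 SvbAct libraries, with 0.63 (standard error 0.32, adjusted p 0.343 by edgeR). IleRS-m had 12.9, 8.07 and 14.3 CPM in SvbAct, 17.8, 20.3 and 16.8 CPM in the libraries labelled RNAiSvb, and 16.7 and 15.8 CPM in Ctrl. IleRS-m was below both Ctrl values in SvbAct, with -0.46 (standard error 0.26, adjusted p 0.398 by edgeR), and its SvbAct replicate 2 was the lowest of the 8 libraries. IleRS-m was highest in the libraries labelled RNAiSvb, and so was ProRS-m.

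The second comparison asked whether the hairpin against Svb shifts the same mRNAs, and here most members lay above Ctrl without any passing the test. In the libraries labelled RNAiSvb, 31 of 34 log2 fold changes over Ctrl were above 0, where 52.4% of all genes were. That number ran between 26 and 32 under the alternatives, with 26 without RNAiSvb replicate 2 and without Ctrl replicate 2. Members share libraries and the cytosolic ones varied together, as described below, so they are not independent observations. The median log2 fold changes were 0.23 for the cytosolic and 0.35 for the mitochondrial genes, against 0.02 for all genes. With edgeR 0 of 34 were called, beside 1.36% of all genes, and 4 had an unadjusted p under 0.05, all higher, where 6.58% of all genes were. That count was 1 with a replicate block, 1 without Ctrl replicate 2, 2 without RNAiSvb replicate 3, and 8 with library totals and without RNAiSvb replicate 1. DESeq2 called 1, ProRS-m, at a log2 fold change of 1.13 and an adjusted p of 0.037, beside 4% of all genes. In CPM, 7 cytosolic and 8 mitochondrial genes were higher in every library labelled RNAiSvb than in either Ctrl library, and 0 cytosolic and 1 mitochondrial gene were lower, where 15.9% of all genes were higher and 17% lower. With library totals as the scale the medians were 0.33 and 0.45, and that of all genes was 0.13. Without RNAiSvb replicate 2 the medians on the TMM scale were 0.14 and 0.18, and without Ctrl replicate 2 the cytosolic median was 0.14. The comparison shares its Ctrl libraries with that of SvbAct.

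ProRS-m had the largest of the 34 log2 fold changes. At the CPM values given above it was higher in all 3 libraries labelled RNAiSvb than in either Ctrl library, with a log2 fold change of 1.12 (standard error 0.32, adjusted p 0.145 by edgeR). Its exons share 45 bases with CG1246. SerRS-m had 10.3, 11.1 and 14.3 CPM in SvbAct, 16, 12.4 and 20.4 CPM in the libraries labelled RNAiSvb, and 10.1 and 9.12 CPM in Ctrl. SerRS-m, the mitochondrial serine enzyme, was likewise above both Ctrl values, at 0.76 (standard error 0.27, adjusted p 0.251 by edgeR), though 356 of its exon bases are shared with Nagk and the level is uncertain for that reason. TrpRS-m had 29.6, 23.5 and 26.5 CPM in SvbAct, 37.4, 36.3 and 41.3 CPM in the libraries labelled RNAiSvb, and 29.6 and 26 CPM in Ctrl. TrpRS-m (FBgn0036763, chromosome arm 3L, 17849727 to 17852453, plus strand), the mitochondrial tryptophan enzyme, did not overlap with Ctrl either, at 0.46 (standard error 0.18, adjusted p 0.301 by edgeR).

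Of the cytosolic members, GlyRS, LysRS and AlaRS had the smallest p. GlyRS had 64.6, 67.2 and 66 CPM in SvbAct, 77.5, 105 and 87.8 CPM in the libraries labelled RNAiSvb, and 74.1 and 63.5 CPM in Ctrl. GlyRS (FBgn0027088, chromosome arm 3L, 15095142 to 15097686, plus strand), 1 of the 4 enzymes without a mitochondrial partner gene here, was above both Ctrl values in each library labelled RNAiSvb, with 0.39 (standard error 0.17, adjusted p 0.353 by edgeR). LysRS had 76.7, 80.7 and 80.7 CPM in SvbAct, 87, 126 and 109 CPM in the libraries labelled RNAiSvb, and 90.6 and 69.6 CPM in Ctrl. LysRS, another of these 4, overlapped because replicate 1 of RNAiSvb lay below Ctrl replicate 1, and its log2 fold change was 0.42 (standard error 0.19, adjusted p 0.373 by edgeR). AlaRS had 104, 149 and 132 CPM in SvbAct, 146, 215 and 149 CPM in the libraries labelled RNAiSvb, and 139 and 104 CPM in Ctrl. AlaRS was higher without overlap, at 0.49 (standard error 0.23, adjusted p 0.396 by edgeR), and its value in replicate 2 of RNAiSvb was well above the other 7 libraries.

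The third comparison set the active form directly against the hairpin, with no Ctrl library in the difference. Its libraries are those of SvbAct in the first comparison and of RNAiSvb in the second, so its directions are not independent of theirs. Most members had lower levels in SvbAct without any passing the test. Of the 34 log2 fold changes, 32 were below 0, where 51.5% of all genes were. That number ran between 29 and 33 under the alternatives, with 29 without RNAiSvb replicate 2, and here too members are not independent observations. The medians were -0.27 for the cytosolic and -0.51 for the mitochondrial genes, against -0.02 for all genes. With edgeR 0 of 34 were called, beside 6.26% of all genes, and DESeq2 also called 0, beside 12% of all genes. Unadjusted p under 0.05 occurred for 8 genes, 5 cytosolic and 3 mitochondrial, each lower in SvbAct, where 11.6% of all genes were, and the count was 3 without RNAiSvb replicate 2. In CPM, 6 cytosolic and 11 mitochondrial genes were lower in every SvbAct library than in any library labelled RNAiSvb and 0 were higher, where 14.9% of all genes were lower and 14.9% higher. Without RNAiSvb replicate 2 the cytosolic median was -0.11 and the mitochondrial median -0.40. The exceptions above 0 were ThrRS at 0.07 and AsnRS-m at 0.13.

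TrpRS-m came nearest to the threshold. At the values given above, between 23.5 and 29.6 CPM in SvbAct and between 36.3 and 41.3 CPM in the libraries labelled RNAiSvb, its log2 fold change was -0.53 (standard error 0.16, adjusted p 0.0808 by edgeR). LeuRS-m had 22.1, 22.3 and 22.5 CPM in SvbAct, 27.8, 40.8 and 30.9 CPM in the libraries labelled RNAiSvb, and 30.8 and 21.2 CPM in Ctrl. LeuRS-m, the mitochondrial leucine enzyme, was lower in SvbAct without overlap, at -0.57 (standard error 0.21, adjusted p 0.125 by edgeR). LeuRS had 67.7, 71.3 and 75.2 CPM in SvbAct, 94.1, 119 and 90.5 CPM in the libraries labelled RNAiSvb, and 91.9 and 71.2 CPM in Ctrl. Its cytosolic counterpart LeuRS did the same, at -0.51 (standard error 0.16, adjusted p 0.0919 by edgeR). GlyRS, IleRS and IleRS-m were also lower without overlap, at -0.45 (standard error 0.15, adjusted p 0.105 by edgeR), -0.48 (standard error 0.18, adjusted p 0.13 by edgeR) and -0.64 (standard error 0.24, adjusted p 0.133 by edgeR) in that order. AspRS, the most abundant member, stood at -0.01 (standard error 0.16, adjusted p 0.984 by edgeR). The plot of fold changes sets the 3 comparisons side by side.

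**Figure D2:**
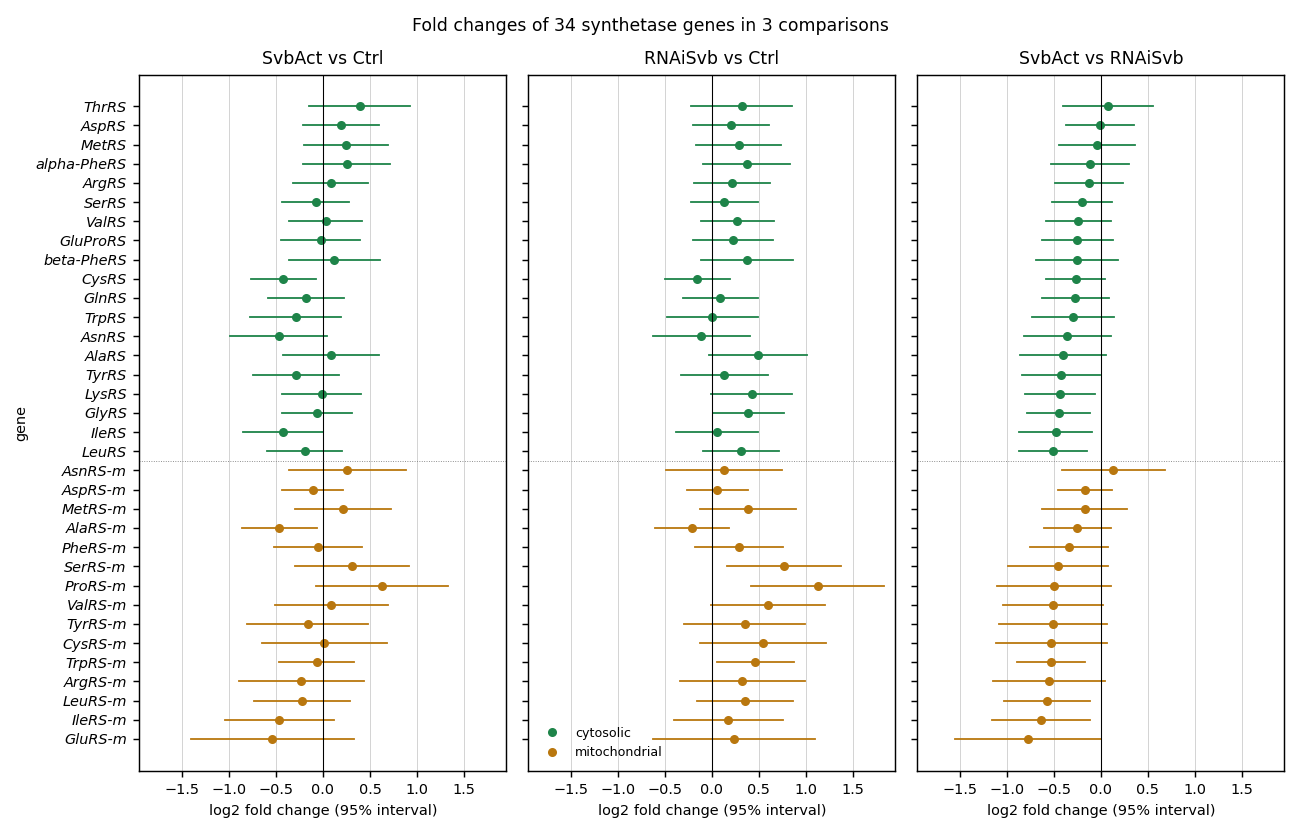
Log2 fold change of each of the 34 synthetase genes (x axis) with its 95% interval from edgeR, for SvbAct over Ctrl, RNAiSvb over Ctrl and SvbAct over RNAiSvb; cytosolic genes are above the dotted line and mitochondrial genes below it, ordered by the third comparison. In the first panel the points lie on both sides of 0, in the second 31 lie above 0, and in the third 32 lie below 0.

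By group mean in CPM, the order RNAiSvb, then Ctrl, then SvbAct held for 17 of the 34 genes, and RNAiSvb, then SvbAct, then Ctrl for 12. AlaRS-m, CysRS and AsnRS were the 3 genes with the highest mean in Ctrl. ThrRS and AsnRS-m were the 2 with the highest mean in SvbAct. Summed over the 15 mitochondrial genes, the level was 325, 311 and 355 CPM in SvbAct, 397, 435 and 421 CPM in the libraries labelled RNAiSvb, and 369 and 346 CPM in Ctrl. The RNAiSvb sums were above those of both other groups, and the SvbAct and Ctrl sums overlapped. AspRS-m weighs most in these sums, with means of 132 CPM in SvbAct, 148 CPM in the libraries labelled RNAiSvb and 142 CPM in Ctrl. Over the 19 cytosolic genes the sums were 1705, 1979.9 and 1855 CPM in SvbAct, 1954, 2609 and 1993 CPM in the libraries labelled RNAiSvb, and 2051 and 1724 CPM in Ctrl. AspRS, whose level is uncertain, weighs most in the cytosolic sums, with means of 379, 381 and 332 CPM in that order of groups. The cytosolic sums overlapped between all groups, replicate 2 of RNAiSvb standing above the other 7 libraries.

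That library was the highest of 8 for 16 of the 19 cytosolic genes and for 7 of the 15 mitochondrial genes. Relative to each gene's mean log2 CPM, the median cytosolic gene lay 0.41 above it there, and all 19 were above. In the other 2 libraries labelled RNAiSvb the median cytosolic deviations were -0.03 and 0.04, whereas the mitochondrial medians were 0.12, 0.28 and 0.21 in replicates 1, 2 and 3. Ctrl replicate 2 was the lowest library for 9 cytosolic genes and SvbAct replicate 1 for 7, and SvbAct replicate 2 was the lowest for 8 mitochondrial genes. Visceral muscle markers, from the layer under the epithelium, summed to 931, 757 and 251 CPM in SvbAct, 791, 264 and 1592 CPM in the libraries labelled RNAiSvb, and 670 and 360 CPM in Ctrl. RNAiSvb replicate 2 and SvbAct replicate 3 each had the lowest muscle sum of their group, and these libraries also differ in genotype. Their median cytosolic deviations were 0.41 and -0.12. The part of muscle RNA in the synthetase values was not tested. Trachea and haemocyte markers, 3 of 6 in the table, summed to at most 8.81 CPM in any library.

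Cytosolic synthetase genes varied together between libraries of one genotype. After each group's mean was removed from log2 CPM, the median pairwise Pearson correlation over the 8 libraries was 0.78 for the 171 pairs of cytosolic genes, of which 162 were above 0. For the 105 pairs of mitochondrial genes it was 0.21, and for the 285 mixed pairs 0.06. Pairs of a cytosolic member with a gene outside the list had a median of -0.01. These values describe genes that share the same libraries and depth. The genes outside the list were not matched for level. Mitochondrial members together had 4465 to 10192 counts in a library, against 28446 to 61064 for cytosolic members. The part of count level in the difference between the classes was not tested. Without RNAiSvb replicate 2, an alternative chosen after seeing the data, the medians were 0.63, 0.28 and 0.11. The plot by library shows the shared shift.

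**Figure D3:**
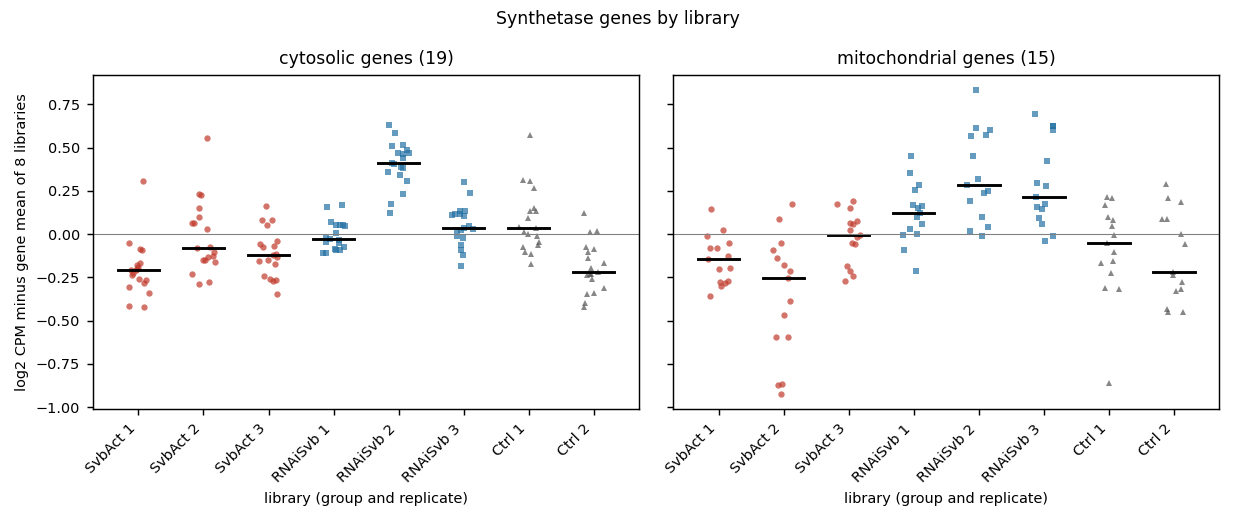
Log2 CPM of each synthetase gene minus its mean over 8 libraries (y axis) in each library (x axis), cytosolic genes on the left and mitochondrial genes on the right; each point is 1 gene and each bar the median of the class. All 19 cytosolic genes lie above 0 in RNAiSvb replicate 2, with a median of 0.41, and mitochondrial medians are above 0 in all 3 libraries labelled RNAiSvb and below 0 in the other 5.

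The balance between the compartments was examined in 16 pairs of a mitochondrial and a cytosolic gene for the same amino acid, by the ratio of RPKM within each library, which the scale of the library does not touch. GluProRS entered for glutamate and again for proline, and PheRS-m was set against each cytosolic subunit, so these pairs share a gene. Mean ratios over 8 libraries ran between 0.0797 for ValRS-m over ValRS and 1.59 for PheRS-m over alpha-PheRS. In the third comparison the mitochondrial gene's log2 fold change was below that of its cytosolic partner in 14 of 16 pairs, with a median difference of -0.19. It was above in 12 of 16 for RNAiSvb over Ctrl (median difference 0.12) and in 7 of 16 for SvbAct over Ctrl (median -0.03). With 3 libraries against 2, an exact two-sided permutation test on a ratio cannot go below p = 0.2, and with 3 against 3 not below 0.1, and no other test of the ratios was made. The ratios of 3 pairs were higher and of 3 lower in every SvbAct library than in either Ctrl library, those of 4 pairs higher and of 1 lower in every library labelled RNAiSvb than in either Ctrl library, and those of 1 pair higher and of 0 lower in every SvbAct library than in any library labelled RNAiSvb. In CPM, the shares of all single genes in these comparisons were 18.7% higher and 20% lower, 15.9% and 17%, and 14.9% and 14.9%. No such share was computed for ratios of other gene pairs, so these counts are not read as a result about the pairs. The pairs described next are 5 of those whose ratios did not overlap in a comparison, given as values with no test.

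ProRS-m over GluProRS had ratios of 0.128, 0.0963 and 0.0962 in SvbAct, 0.147, 0.0916 and 0.153 in the libraries labelled RNAiSvb, and 0.0565 and 0.0789 in Ctrl. The SvbAct and the RNAiSvb values all lay above Ctrl. The ratios with GluProRS are uncertain, because 905 of its 5453 exon bases are shared with the antisense gene asRNA:CR46092. SerRS-m over SerRS followed the same pattern, at 0.0803, 0.072 and 0.108 in SvbAct, 0.105, 0.0721 and 0.134 in the libraries labelled RNAiSvb, and 0.0641 and 0.0683 in Ctrl. For AlaRS-m over AlaRS the order was the opposite, with 0.188, 0.158 and 0.167 in SvbAct, 0.175, 0.12 and 0.175 in the libraries labelled RNAiSvb, and 0.21 and 0.297 in Ctrl, both manipulated genotypes lying below Ctrl. For AsnRS-m over AsnRS the ratios were 0.141, 0.146 and 0.154 in SvbAct, 0.107, 0.099 and 0.11 in the libraries labelled RNAiSvb, and 0.077 and 0.108 in Ctrl. Its SvbAct ratios were above all RNAiSvb ratios and above both Ctrl ratios. GluRS-m over GluProRS had ratios of 0.0867, 0.0462 and 0.0639 in SvbAct, 0.0848, 0.105 and 0.0878 in the libraries labelled RNAiSvb, and 0.088 and 0.0992 in Ctrl, lower in SvbAct than in Ctrl. Counts on mitochondrial members per 100 counts on cytosolic members averaged 18 ± 1.97 in SvbAct (SD, n = 3), 19.4 ± 2.35 in the libraries labelled RNAiSvb (SD, n = 3), and 19 ± 1.5 in Ctrl (SD, n = 2), and these overlapped.

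**Figure D4:**
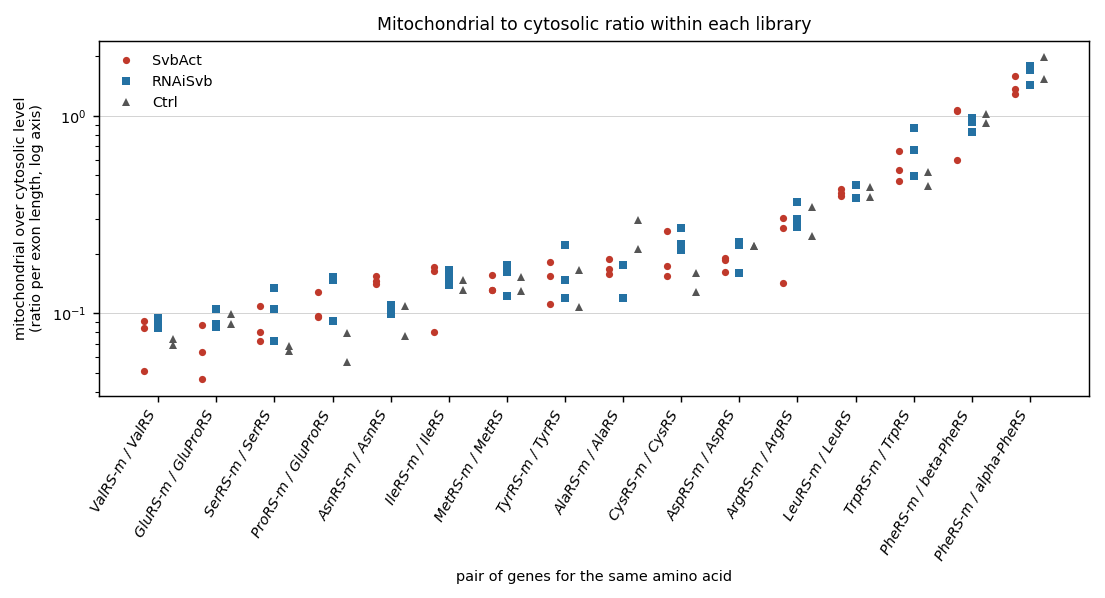
Ratio of the mitochondrial to the cytosolic gene for the same amino acid (y axis, RPKM over RPKM, log axis) for 16 pairs (x axis, by mean ratio); each point is 1 library of SvbAct, RNAiSvb or Ctrl. AsnRS-m over AsnRS is highest in SvbAct, AlaRS-m over AlaRS is highest in Ctrl, and ProRS-m over GluProRS is lowest in Ctrl.

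Genes that act with the synthetases gave few calls. Of 7 partner genes tested, 0 were called by edgeR in any comparison, and unadjusted p under 0.05 occurred for 0, 2 and 2 of them for SvbAct over Ctrl, RNAiSvb over Ctrl and SvbAct over RNAiSvb, where 17.4%, 13.6% and 23.7% of all genes had one in those comparisons. DESeq2 called 2, AIMP1 and Slimp, both lower for SvbAct over RNAiSvb, beside 12% of all genes, and 0 in the other comparisons. AIMP1 had 18.3, 10.2 and 17.2 CPM in SvbAct, 24, 37.8 and 26.4 CPM in the libraries labelled RNAiSvb, and 22.7 and 19.4 CPM in Ctrl. AIMP1, a scaffold protein of the complex that gathers several cytosolic synthetases, had a log2 fold change of -0.95 (standard error 0.26, adjusted p 0.0589 by edgeR) for SvbAct over RNAiSvb, and these groups did not overlap. Slimp had 21.8, 21.8 and 22 CPM in SvbAct, 31, 30.3 and 36.9 CPM in the libraries labelled RNAiSvb, and 21.4 and 22.8 CPM in Ctrl. Slimp, a relative of SerRS-m that in Drosophila pairs with it in mitochondria, was likewise lower without overlap, at -0.58 (standard error 0.16, adjusted p 0.0608 by edgeR). GatA had 15.2, 13 and 15.2 CPM in SvbAct, 16.9, 18.5 and 22 CPM in the libraries labelled RNAiSvb, and 10.4 and 13.5 CPM in Ctrl. GatA, a subunit of the amidotransferase that makes mitochondrial glutaminyl-tRNA, stood at 0.68 (standard error 0.23, adjusted p 0.221 by edgeR) for RNAiSvb over Ctrl and 0.28 (standard error 0.23, adjusted p 0.575 by edgeR) for SvbAct over Ctrl.

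Translation factors, which act after tRNA charging, were examined as further lists, each gene being tested singly. All 7 mitochondrial translation factors were lower in every SvbAct library than in any library labelled RNAiSvb, where 14.9% of all genes were. Their median log2 fold change was -0.54, and 0 of 7 were called by edgeR in any comparison, 4 having an unadjusted p under 0.05 in this one, where 11.6% of all genes were lower at that level. For RNAiSvb over Ctrl 1 had one, higher, where 6.58% of all genes were, and 0 had one for SvbAct over Ctrl. DESeq2 called 1, mEFG1, lower for SvbAct over RNAiSvb, beside 12% of all genes, and higher for RNAiSvb over Ctrl, beside 4%. mEFG1 had 29.9, 16.8 and 19.4 CPM in SvbAct, 38, 38.2 and 37.9 CPM in the libraries labelled RNAiSvb, and 23.1 and 16.9 CPM in Ctrl. mEFG1, the mitochondrial elongation factor that moves the ribosome along, had the smallest p of these, at -0.79 (standard error 0.23, adjusted p 0.072 by edgeR). The smallest p for SvbAct over Ctrl belonged to mEFTu2 at -0.34 (standard error 0.23, adjusted p 0.489 by edgeR), and that for RNAiSvb over Ctrl to mEFG1 at 0.93 (standard error 0.26, adjusted p 0.145 by edgeR). Of 6 cytosolic elongation factors, 1 was called by edgeR for SvbAct over RNAiSvb, beside 6.26% of all genes, and 0 in the other comparisons. eEF1delta had 66.6, 34.4 and 69.4 CPM in SvbAct, 122, 124 and 111 CPM in the libraries labelled RNAiSvb, and 93.7 and 93.8 CPM in Ctrl. eEF1delta, a subunit of the exchange factor that reloads eEF1A with GTP, was lower in SvbAct than in the libraries labelled RNAiSvb, at -1.06 (standard error 0.23, adjusted p 0.0264 by edgeR), beside -0.72 (standard error 0.25, adjusted p 0.179 by edgeR) for SvbAct over Ctrl. Whether these fold changes differ was not tested. The edgeR call was lost without RNAiSvb replicate 1 (log2 fold change -1.05, adjusted p 0.0541) and without RNAiSvb replicate 2 (log2 fold change -1.03, adjusted p 0.0784), the fold change staying near that of all libraries. SvbAct replicate 2 was the lowest library for AIMP1, mEFG1 and eEF1delta.

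The GCN2, PERK and ATF4 pathway answers to uncharged tRNA and to stress in the endoplasmic reticulum, and its transcription factor ATF4 (crc in flies) is known to raise synthetase genes. Of its 16 genes tested 0 were called by edgeR in any comparison, and unadjusted p under 0.05 occurred for 2, 2 and 5 in the order SvbAct over Ctrl, RNAiSvb over Ctrl and SvbAct over RNAiSvb, beside the 17.4%, 13.6% and 23.7% of all genes. DESeq2 called 1, chrb, higher for SvbAct over RNAiSvb, beside 12% of all genes, and 0 in the other comparisons. The median log2 fold changes in that order were -0.15, -0.07 and -0.15. Gcn2, the kinase that senses uncharged tRNA, and trbl stood at -0.66 (standard error 0.29, adjusted p 0.27 by edgeR) and -0.54 (standard error 0.24, adjusted p 0.28 by edgeR) for SvbAct over Ctrl. The smallest p for RNAiSvb over Ctrl belonged to trbl at -0.84 (standard error 0.24, adjusted p 0.143 by edgeR) and Gadd45 at 0.74 (standard error 0.28, adjusted p 0.283 by edgeR). For SvbAct over RNAiSvb they belonged to eIF2alpha, the kinases' substrate, at -0.58 (standard error 0.19, adjusted p 0.0975 by edgeR) and Nmdmc, a mitochondrial folate enzyme, at -0.63 (standard error 0.21, adjusted p 0.103 by edgeR).

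By edgeR, most progenitor markers and a few enterocyte and enteroendocrine markers were called in some comparison, while no synthetase gene was. The progenitor markers called higher in SvbAct than in Ctrl were led by N at 2.32 (standard error 0.31, adjusted p 0.0043 by edgeR), Sox100B at 2.71 (standard error 0.39, adjusted p 0.00556 by edgeR) and E(spl)mbeta-HLH at 2.56 (standard error 0.38, adjusted p 0.00584 by edgeR), which encode the Notch receptor, a transcription factor of stem cells and a Notch target. Of the 7 tested 6 were called, also by DESeq2, beside 3.44% of all genes by edgeR and 7.3% by DESeq2. The median log2 fold change of the 7 was 2.32. The other called ones were the receptor gene Egfr at 1.53 (standard error 0.23, adjusted p 0.00631 by edgeR), the stem cell transcription factor gene Sox21a at 3.78 (standard error 0.66, adjusted p 0.012 by edgeR), and the Notch ligand gene Delta at 2.05 (standard error 0.35, adjusted p 0.012 by edgeR). The edgeR count was 1 without Ctrl replicate 1 and 3 without Ctrl replicate 2, while the log2 fold changes stayed above 0, N having 2.25 and 2.39, Sox21a 3.67 and 3.90, and Delta 2.16 and 1.93 in these fits. With 1 Ctrl library left, that library is assumed to vary like those of the other groups. Against the libraries labelled RNAiSvb 6 were called again, beside 6.26% of all genes by edgeR, with a median of 1.57. The 5 with the smallest p were Sox100B at 3.36 (standard error 0.34, adjusted p 0.000654 by edgeR), E(spl)mbeta-HLH at 2.28, Sox21a at 3.25, N at 1.49 and Egfr at 1.13 on the log2 scale. Among enterocyte markers, nub was called higher in SvbAct than in Ctrl, at 1.21 (standard error 0.20, adjusted p 0.0107 by edgeR), and lost that call in edgeR without Ctrl replicate 1 (log2 fold change 1.27) and without Ctrl replicate 2 (1.14). The amylase gene Amy-p was called lower in SvbAct than in the libraries labelled RNAiSvb, at -2.24 (standard error 0.42, adjusted p 0.0127 by edgeR), and so was the trypsin gene alphaTry, at -0.87 (standard error 0.21, adjusted p 0.0376 by edgeR), a call lost under 9 of the 15 alternatives. Enteroendocrine markers summed to between 510.0 and 670.5 CPM in SvbAct, 533 and 693 CPM in the libraries labelled RNAiSvb, and 523 and 531 CPM in Ctrl, and the peptide hormone gene Dh31 was called lower in RNAiSvb than in Ctrl, at -2.14 (standard error 0.30, adjusted p 0.00629 by edgeR), and higher in SvbAct than in RNAiSvb, at 2.37 (standard error 0.28, adjusted p 0.00136 by edgeR). The first of these calls was lost in edgeR without Ctrl replicate 2 (log2 fold change -1.89, adjusted p 0.102). Of 9 visceral muscle markers 0 were called by edgeR or DESeq2 in any comparison, and 0 had an unadjusted p under 0.05 in edgeR. The part of progenitor RNA in the synthetase values of SvbAct was not tested.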

How the data were processed

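The analysis covered 8 bulk RNA-seq libraries (SvbAct n = 3, RNAiSvb n = 3, Ctrl n = 2). Per the labels' protocols, the Ovation SoLo system was used for library construction and single 100 nt reads were taken. The submitters' processing notes list FastQC 0.11.5, STAR 2.5.2b, HTSeq 0.6.0, edgeR and the dm6 build, and strand handling is not given in the sources used here. The values used are the authors' deposited raw read counts per gene; fold change columns of the same table were not used. Counts were scaled by TMM (factors 0.930 to 1.09) and fitted over all 8 libraries with edgeR 4.0.16 (quasi-likelihood F test, R 4.3.3, limma 3.58.1); 402 genes failed filterByExpr. P-values were adjusted by Benjamini-Hochberg over 8775 genes, with a threshold of 0.05. The standard error is the log2 fold change over the root of F. RPKM used exon lengths from Ensembl release 115 (BDGP6.54, dm6 coordinates), and log2 CPM for deviations used a prior count of 2. Alternatives included DESeq2 1.42.0, other scalings and filters, a replicate block and each library left out. The test was checked on counts simulated gene by gene from the spread fitted to these data, without shifts shared by genes of a library. Members, gene lists and named genes (per class: the 3 smallest p in each comparison, the 3 highest and 2 lowest levels; per further list: called genes, at most 5 by smallest p, or else the 2 smallest p, Delta being named beyond this) were chosen with earlier results of these data known. Exons of 15 members overlap other genes, 5 of them cytosolic and 10 mitochondrial. The overlap was at least 200 bases for 5 members, AspRS, GluProRS, SerRS-m, ArgRS-m (325 bases with mRpS9) and CysRS-m (302 bases with CG13016). Intervals and p-values measure the spread between libraries made on different days.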

Additional observations from a re-analysis of the deposited data

How the results depend on the processing

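No synthetase gene was called in any comparison under the alternatives that used edgeR, among the 15 tried, 8 of which left out a library, and the 1 call of DESeq2 was ProRS-m for RNAiSvb over Ctrl. DESeq2 called 641, 351 and 1054 of all genes for SvbAct over Ctrl, RNAiSvb over Ctrl and SvbAct over RNAiSvb, against 302, 119 and 549 with edgeR. Leaving out each library in turn, edgeR called 48 to 368, 23 to 141 and 262 to 497 genes in these 3 comparisons; the lowest of these counts came without Ctrl replicate 1, Ctrl replicate 2 and SvbAct replicate 2 in that order. With coding length the mitochondrial median level was 7.63 RPKM. The main fit did not pair libraries by replicate number. After group means were removed, correlations between libraries of different groups were -0.06 to 0.14 for the same number and -0.20 to 0.15 for different numbers. With 2 Ctrl libraries each correlation with Ctrl occurs with both signs, so this check cannot settle whether numbers pair libraries. With a replicate block edgeR called 269, 124 and 443 genes and 0 members, the median log2 fold changes being -0.04, 0.22 and -0.26 for cytosolic and -0.13, 0.30 and -0.49 for mitochondrial genes.

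The medians for RNAiSvb over Ctrl stayed above 0 (0.14 to 0.37 cytosolic, 0.18 to 0.45 mitochondrial) and those for SvbAct over RNAiSvb below 0 (-0.35 to -0.11 and -0.58 to -0.38) under all 15 alternatives, whereas those for SvbAct over Ctrl took both signs. The alternatives share most of their libraries. Between libraries of one group, the class median of log2 CPM had a pooled SD of 0.21 for cytosolic and 0.25 for mitochondrial genes. For SvbAct over Ctrl, the log2 fold changes near 0 of some members changed sign with another scale, filter or tool: LysRS (0.0083 with DESeq2 size factors, 0.071 with library totals, 0.0063 with at least 10 counts in every library, 0.0081 with DESeq2 Wald test), GlyRS (0.024 with library totals), TrpRS-m (0.026 with library totals), SerRS (0.0047 with library totals), PheRS-m (0.032 with library totals). For SvbAct over RNAiSvb, the log2 fold changes near 0 of some members changed sign with another scale, filter or tool: AspRS (0.010 with DESeq2 size factors, 0.012 with at least 10 counts in every library, 0.010 with DESeq2 Wald test). Leaving out a library changed the sign of others, whose log2 fold changes then ran over these ranges. For SvbAct over Ctrl they were GlyRS -0.17 to 0.050, LysRS -0.19 to 0.19, AlaRS -0.11 to 0.31, TrpRS-m -0.16 to 0.026, LeuRS -0.37 to 0.00055, LeuRS-m -0.47 to 0.071, SerRS -0.19 to 0.043, PheRS-m -0.13 to 0.025. For RNAiSvb over Ctrl they were IleRS -0.10 to 0.18, AsnRS -0.45 to 0.32, TyrRS -0.10 to 0.28, AspRS-m -0.020 to 0.14, GluRS-m -0.071 to 0.41. For SvbAct over RNAiSvb they were AspRS -0.089 to 0.13, alpha-PheRS -0.23 to 0.019, MetRS -0.13 to 0.10. The cause of these changes was not tested. The 5 residual degrees of freedom and 2 Ctrl libraries limit the comparisons: the SE of a member's log2 fold change ran between 0.13 and 0.39.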
